A study of Mus musculus with 6 samples.

Results

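The Bcl2 family of survival and death genes was followed in mouse CD4+ T cells through 10 genes: the prosurvival members Bcl2, Bcl2l1 and Mcl1, the pore-forming members Bax and Bak1, and the BH3-only members Bcl2l11, Bid, Bad, Bbc3 and Pmaip1. A gene was represented by every probe set to which the array's annotation gives that symbol and no other. This found 29 probe sets for 9 of the 10 genes, out of 18193 genes named on the array, and Bax is not analysed here. There were 5 probe sets for Bcl2, 4 for Bcl2l1, 6 for Mcl1, 5 for Bcl2l11, 3 for Bid, 2 each for Bak1 and Bad, and 1 each for Bbc3 and Pmaip1. Of the 29 probe sets, 27 were bright enough to be tested, that is, 2 or more of the 6 arrays placed them higher than their own 40th percentile. The other two were dim: the fourth Bcl2l1 probe set (1426050_at) read between 0.67 and 2.63, and the third Bid probe set (1447873_x_at) between 5.38 and 11.4.

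The study, whose title concerns T cell genes that retinoic acid regulates, put RNA of CD4+ T cells from the spleen and lymph nodes of mice on 6 arrays, 2 each for the groups Control, RA and Ro. The labels neither spell out RA or Ro nor give a dose, a time, a strain or an age, so the groups are called here by those names and the arrays by group and replicate number (Control 1, Control 2 and so on). A culture is described for Control 2 alone: 5 days with TGFb1 and TNFa, with the interleukins IL2, IL6, IL1b, IL21 and IL23, and with antibodies to IL4 and IFNg. The labels do not say whether the other 5 arrays share that culture or whether replicates are separate animals. Each p-value thus covers the spread among these arrays only. Within RA and within Ro that spread may be technical. Within Control it is not technical alone, since the 2 arrays differ in the X- and Y-linked signals given below.

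Proteins of this family decide at the outer mitochondrial membrane whether a cell dies by apoptosis. Bcl2, Bcl-xL (the product of Bcl2l1) and Mcl-1 hold Bax and Bak in check, and BH3-only proteins such as Bim (Bcl2l11), Puma (Bbc3) and Noxa (Pmaip1) bind the prosurvival proteins or activate Bax and Bak, whose pores let cytochrome c out. In T cells, Bim is known for the deletion of self-reactive thymocytes and for the loss of effector cells when an immune response ends. Bcl2 is known to be kept up by IL-7 signals in resting T cells, Bcl-xL to be induced on activation, and Mcl-1 to be short-lived and needed throughout T cell life.

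Forkhead factors of the FoxO group are known to drive transcription of Bcl2l11 and Bbc3, so the 250 bases before each start site were searched for the forkhead letters GTAAACA, read on both strands (TGTTTAC on the other). The table of promoters held 15 such windows for 9 of the 10 genes (RefSeq, GRCm38.p6). Of these 15 windows, 2 held the letters, 1 of Bcl2l11 and 1 of Bbc3, against 3.17% of 32851 windows of the same length over all genes. Both are printed 5′ to 3′ with the match in capitals, since all 5 Bcl2l11 probe sets set 1 array apart from the other 5, and a window of Mcl1 without the letters is printed beside them for comparison. The Bcl2l11 window lies at chr2:128125788-128126037 on the plus strand, the Bbc3 window at chr7:16310011-16310260 on the plus strand and the Mcl1 window at chr3:95658471-95658720 on the plus strand.
Bcl2l11: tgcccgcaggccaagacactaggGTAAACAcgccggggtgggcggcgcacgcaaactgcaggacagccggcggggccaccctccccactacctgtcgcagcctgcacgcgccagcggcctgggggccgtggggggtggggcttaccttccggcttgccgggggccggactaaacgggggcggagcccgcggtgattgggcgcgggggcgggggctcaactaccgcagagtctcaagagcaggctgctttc
Bbc3: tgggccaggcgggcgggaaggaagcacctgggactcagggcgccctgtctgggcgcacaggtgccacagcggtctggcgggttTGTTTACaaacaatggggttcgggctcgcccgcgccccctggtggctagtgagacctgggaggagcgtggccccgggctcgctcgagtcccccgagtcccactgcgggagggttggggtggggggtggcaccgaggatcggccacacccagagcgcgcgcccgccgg
Mcl1: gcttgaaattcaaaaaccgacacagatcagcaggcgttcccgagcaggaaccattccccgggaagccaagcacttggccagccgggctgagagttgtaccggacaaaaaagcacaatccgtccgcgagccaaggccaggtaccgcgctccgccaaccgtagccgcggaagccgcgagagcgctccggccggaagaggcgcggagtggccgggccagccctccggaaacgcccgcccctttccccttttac
The match begins at base -227 from the start site in Bcl2l11 and at base -167 in Bbc3. The STAT letters TTCNNNGAA were in 0 of the 15 windows, against 7.02% of all windows, and the E-box letters CACGTG were in 2 (1 of Bax and 1 of Bbc3), against 6.02%. These are matches of letters, which say nothing of whether a factor was bound in these cells.

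The arrays were not alike, and 1 of them stood apart before any comparison. Control 2 correlated with the other 5 arrays at r between 0.911 and 0.917, whereas the other pairs correlated at 0.961 to 0.972. These correlations are of log2 signals over all probe sets, tested or not, except the manufacturer's control probe sets. Array medians ran from 16.3 to 23.8 signal units, with Control 2 the lowest. Summed signals of 9 CD4 T cell markers lay between 27021 and 37209 on all 6 arrays, and those of 5 B cell markers between 69.4 and 130. The CD4 sum hides markers that moved apart on Control 2. There Cd4 read 463 (1141 to 1791 on the other 5), Cd28 1218 (2985 to 3532) and Cd247 955 (2558 to 3272). Thy1 went the other way, at 7555 (3542 to 4675). Control 2 had the lowest sum of 7 mast cell and basophil markers (157, against 1292 to 5565), of 4 granulocyte markers (32.1, against 92.1 to 610), of 8 myeloid and dendritic cell markers (148, against 363 to 1640) and of 11 proliferation markers (6636, against 13401 to 33142). It had the highest sum of 4 NK cell markers (2697, against 242 to 1087) and of 2 CD8 T cell markers (321, against 58.9 to 187). Not every marker followed its sum. The CD8 order rested on Cd8a (236 on Control 2, against 4.29 to 23.2), while Cd8b1 lay within the other arrays (85.0, against 54.6 to 164). The mast cell marker Kit was highest on Control 2 (120, against 25.1 to 104). The X-inactivation RNA Xist read 241 on Control 1, 1145 on Control 2 and 0.364 to 3.48 on the 4 arrays of RA and Ro, while the Y-linked gene Eif2s3y read 0.972 on Control 2 and 747 to 967 on the other 5. The family results below that rest on Control are therefore given with both Control arrays and with each alone, or array by array. Calls for the other gene lists are described against Control 2 alone. The part of these markers in the results was not tested. In RNA from a mix of cells, fewer cells of a type and less RNA per cell cannot be told apart.

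Bcl2l11, which encodes the BH3-only killer Bim, lay far lower on Control 2 than on the other 5 arrays. Its brightest probe set (1456005_a_at) gave 3797 signal units on Control 1, 799 on Control 2, 3501 and 2693 with RA and 3654 and 2768 with Ro. The next (1435448_at) gave 2252 on Control 1, 349 on Control 2, 2089 and 1849 with RA and 2437 and 1843 with Ro. Control 1 lay above the RA and Ro arrays in the first probe set and among them in the second, and Control 2 lay far below all of them in both. The probe set 1435449_at gave 856 and 72.3 in Control, 680 and 523 with RA and 786 and 517 with Ro. The probe set 1456006_at gave 262 and 44.7 in Control, 227 and 172 with RA and 324 and 222 with Ro. The dimmest (1426334_a_at) gave 160 and 25.1 in Control, 143 and 123 with RA and 190 and 124 with Ro. In all 5 probe sets the RA and Ro arrays overlapped, and the lowest of the other 5 arrays was 3.37 to 7.15 times the signal of Control 2. These ratios are of deposited signals, on which Control 2 was the dimmest array. With log2 values centred on each array's median the gap was smaller. Control 2 then lay at 3.84 against 4.88 on the lowest other array in 1456005_a_at, and at 0.43 against 2.47 in 1435449_at.

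**Figure D1:**
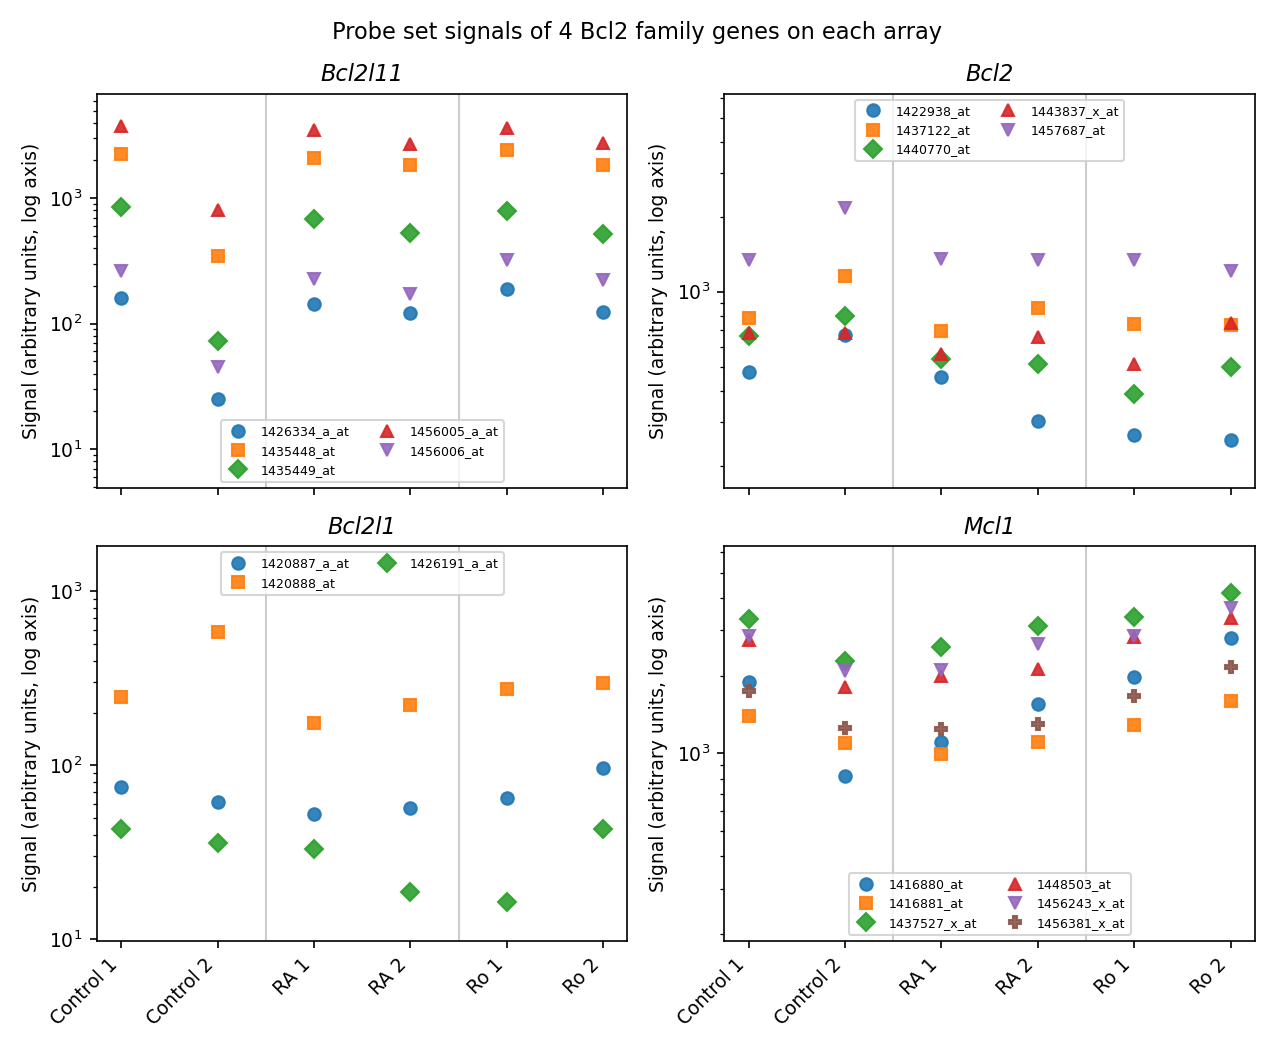
Deposited signal (arbitrary units, log axis) of each tested probe set of Bcl2l11, Bcl2, Bcl2l1 and Mcl1 on the 6 arrays; each symbol is 1 probe set on 1 array and vertical lines part the groups. All 5 Bcl2l11 probe sets drop on Control 2 (25.1 to 799). All 6 Mcl1 probe sets are higher on both Ro arrays than on both RA arrays, as are 33.8% of all tested probe sets.

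The prosurvival gene Bcl2 was highest on Control 2, the array where Bcl2l11 was lowest, in 4 of its 5 probe sets. Its brightest probe set (1457687_at) gave 1337 and 2162 in Control, 1360 and 1343 with RA and 1345 and 1207 with Ro. The probe set 1437122_at gave 782 and 1161 in Control, 694 and 864 with RA and 739 and 736 with Ro. Control 2 was the highest of the 6 arrays in these 2 probe sets, and the 4 RA and Ro arrays lay close together. The probe set 1440770_at gave 664 and 800 in Control, 538 and 513 with RA and 389 and 498 with Ro. The probe set 1422938_at gave 474 and 670 in Control, 454 and 302 with RA and 266 and 253 with Ro. In both, each Ro array lay below each RA array, as in 6.83% of all tested probe sets. The probe set 1443837_x_at, marked by its name as open to cross-hybridisation, gave 685 and 683 in Control, 563 and 656 with RA and 513 and 749 with Ro, with no order among the groups.

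Bcl2l1, which encodes Bcl-xL, had 1 clear probe set and 2 dimmer ones. The brightest (1420888_at) gave 248 and 584 in Control, 175 and 223 with RA and 274 and 297 with Ro. Control 2 was again the highest, and each RA array lay below each Ro array, as in 33.8% of all tested probe sets. The probe set 1420887_a_at gave 74.9 and 61.7 in Control, 52.9 and 57.2 with RA and 65.1 and 97.1 with Ro. The probe set 1426191_a_at gave 42.9 and 36.0 in Control, 33.0 and 18.7 with RA and 16.4 and 43.2 with Ro, and there RA and Ro overlapped.

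Mcl1, the short-lived prosurvival member, was higher on both Ro arrays than on both RA arrays in 6 of its 6 probe sets. As deposited, 33.8% of all tested probe sets had that order, and the 6 probe sets read the same RNA. The probe set 1448503_at gave 2752 and 1808 in Control, 1994 and 2119 with RA and 2833 and 3351 with Ro. The probe set 1416880_at gave 1898 and 818 in Control, 1108 and 1557 with RA and 1971 and 2794 with Ro. Control 1 lay close to the lower Ro array in both, and Control 2 below the RA arrays. That place of Control 2 depends on scaling, since it was the dimmest array. With log2 values centred on each array's median, Control 2 lay above the RA arrays in 1448503_at (5.01, against 4.76 and 4.71). It stayed below them in 1416880_at (3.87, against 3.91 and 4.27). The probe set 1456381_x_at gave 1751 and 1253 in Control, 1246 and 1296 with RA and 1668 and 2169 with Ro. The probe set 1416881_at gave 1396 and 1097 in Control, 999.5 and 1108 with RA and 1293 and 1600.3 with Ro. The order was the same in the remaining pair, which both carry the cross-hybridisation mark in their names. Of these, 1437527_x_at gave 3329 and 2284 in Control, 2594 and 3107 with RA and 3383 and 4177 with Ro. The last, 1456243_x_at, gave 2860 and 2094 in Control, 2098 and 2651 with RA and 2859 and 3666 with Ro.

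Of the pore formers, Bak1 was analysed. Both of its probe sets were higher with Ro than with RA, an order of 33.8% of all tested probe sets as deposited. The brighter (1418991_at) gave 244 and 328 in Control, 185 and 218 with RA and 327 and 472 with Ro. The dimmer (1425716_s_at) gave 73.9 and 17.3 in Control, 38.7 and 48.3 with RA and 61.3 and 95.1 with Ro. The probe sets disagreed on Control 2, which was above Control 1 in the first and the lowest of the 6 arrays in the second.

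Of the other BH3-only genes, Bid and Bad showed no order that their probe sets shared, and Bbc3 and Pmaip1 had 1 probe set each. Bid, which is cleaved by caspase-8 to link death receptors to mitochondria, gave 208 and 165 in Control, 139 and 184 with RA and 145 and 261 with Ro in its brighter tested probe set (1417045_at). Its dimmer tested probe set (1448560_at) gave 74.8 and 21.2 in Control, 41.6 and 42.5 with RA and 40.1 and 51.3 with Ro. Bad, whose protein is kept inactive by phosphorylation downstream of growth factors, gave 229 and 253 in Control, 320.2 and 319.9 with RA and 258 and 389 with Ro (1416582_a_at). The RA arrays fell between the Ro arrays there, whereas the other Bad probe set (1416583_at) placed RA, at 192 and 222, below Ro, at 262 and 258, with 281 and 153 in Control. Bbc3, which encodes Puma, gave 431 and 236 in Control, 381 and 417 with RA and 423 and 561 with Ro (1423315_at). Both RA arrays lay below both Ro arrays there, as in 33.8% of all tested probe sets as deposited, but not on centred values. Pmaip1, which encodes Noxa, gave 186 and 246 in Control, 164 and 163 with RA and 307 and 97.6 with Ro (1418203_at). The Ro arrays differed from each other there by more than any other pair of arrays.

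RA and Ro were compared first, since the Control arrays do not enter the difference between them. They do enter the SEs, which come from the fit of all 6 arrays unless said otherwise. These SEs thus hold the spread between Control 1 and Control 2. The mean signal of the Ro arrays was 1.33 to 1.79 times that of the RA arrays over the 6 Mcl1 probe sets, and 1.80 to 1.98 times over the 2 Bak1 probe sets. To set arrays side by side irrespective of brightness, log2(signal + 2.999) was centred on each array's median, and on that scale the RA minus Ro difference of Mcl1 ran from -0.62 to -0.19 (SE 0.27 to 0.32, n = 2 against 2). The difference of Bak1 was -0.74 (SE 0.43) and -0.56 (SE 0.47) in its 2 probe sets. The differences of Bcl2 went the other way, from 0.19 to 0.72 (SE 0.35 to 0.47, 5 probe sets). For Bcl2l11 they ran from -0.22 to 0.16 with SEs of 0.52 to 0.83, so each lay within its error. For the single probe sets of Bbc3 and Pmaip1 they were -0.07 (SE 0.28) and 0.13 (SE 0.63). In a fit of only the RA and Ro arrays the SEs were smaller. They were 0.17 to 0.22 for Mcl1, 0.25 and 0.29 for Bak1 and 0.24 to 0.33 for Bcl2l11. The Bcl2l11 differences of that fit, -0.21 to 0.17, each still lay within the SE.

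None of these differences passed the test. In limma's moderated test over all 6 arrays, 0 of the 27 probe sets were called at an adjusted p under 0.05, and at an unadjusted p under 0.05 the count was also 0. Over all 29531 tested probe sets 0% were called, and 525 were under 0.05 before adjustment. In a limma fit of just these 4 arrays, 10 of 27900 probe sets were called (0.0358%), none of them of the family. In that fit 3 of the 27 were under 0.05 before adjustment, Bak1 1418991_at, Mcl1 1416880_at and Bcl2 1422938_at, each with a limma adjusted p of 0.942. Without Control 2 the counts were 0 of 27 and 10 of 28633 (0.0349%).

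**Figure D2:**
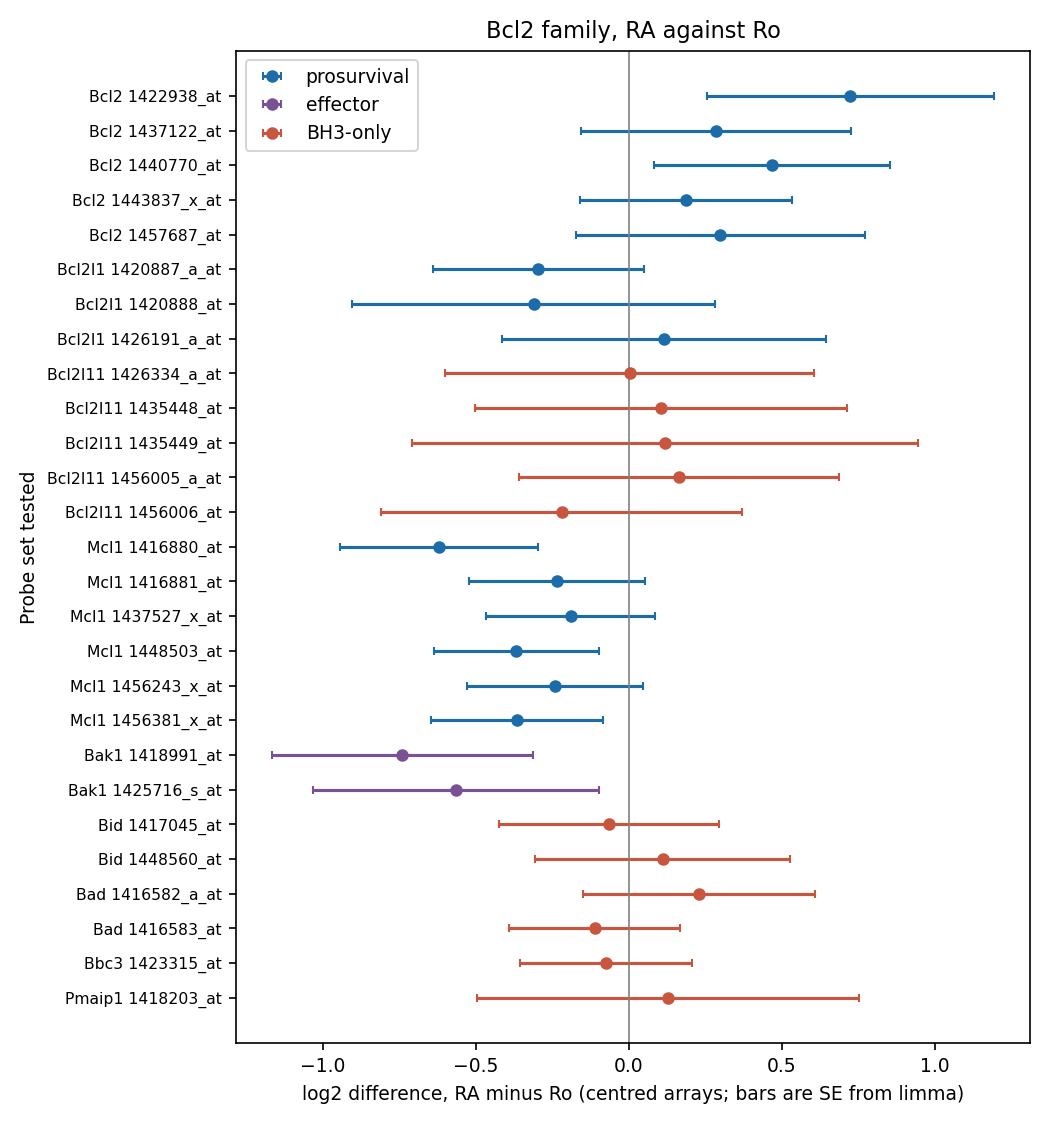
RA minus Ro log2 difference of each tested probe set (points, centred arrays, 2 against 2), coloured by role. Bars are the SE from the limma fit of all 6 arrays, which holds the spread between the Control arrays. The 6 Mcl1 and 2 Bak1 probe sets lie to the left of 0 and the 5 Bcl2 probe sets to the right, and 0 of 27 passed an adjusted p of 0.05.

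Complete separation of the 2 RA from the 2 Ro arrays is a weaker description, since pairs of arrays separate often. On centred values both RA arrays lay below both Ro arrays in 11 of the 27 probe sets, against 18.3% of all tested probe sets. These were 6 of 6 for Mcl1, 2 of 2 for Bak1, 2 of 3 for Bcl2l1 and 1 of 2 for Bad. Both RA arrays lay above both Ro arrays in 4 of the 27, all of Bcl2, against 16.3% of all. On the signals as deposited the counts were 12 below, with Bbc3 added, against 33.8% of all, and 2 above, again of Bcl2, against 6.83%. As deposited, the median tested probe set differed by -0.21 (log2) between RA and Ro, against 0.0020 after centring. The probe sets of 1 gene read the same RNA and are not separate observations. The mast cell and basophil marker sum also separated these groups, at 1480 and 1292 with RA and 5565 and 3672 with Ro, as did the NK cell sum, at 242 and 353 with RA and 1087 and 613 with Ro. The CD8 T cell sum, at 58.9 and 93.1 with RA and 139 and 187 with Ro, and the CD4 T cell sum, at 32144 and 30383 with RA and 32853 and 37209 with Ro, separated them too. The part of these markers in the Mcl1 and Bak1 values was not tested.

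Against the 2 Control arrays together, 0 of the 27 probe sets were called for RA and 0 for Ro, where 0% of all tested probe sets were called in either comparison. At an unadjusted p under 0.05 the RA minus Control comparison held 0 of the 27 and 676 of all. The Ro minus Control comparison held 2 of the 27 and 1721 of all, and both were Bcl2 probe sets. The difference was -1.42 (SE 0.47) for Bcl2 1422938_at and -1.04 (SE 0.39) for 1440770_at, each with a limma adjusted p of 0.694. Without Control 2 these differences were -0.83 and -0.56. The mean signals of Bcl2l11 1456005_a_at were 2298 ± 2120 in Control, 3097 ± 572 with RA and 3211 ± 626 with Ro (SD, n = 2 each), so the spread within Control was near its mean. Its log2 difference from Control was 0.72 (SE 0.52) for RA and 0.55 (SE 0.52) for Ro.

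**Figure D3:**
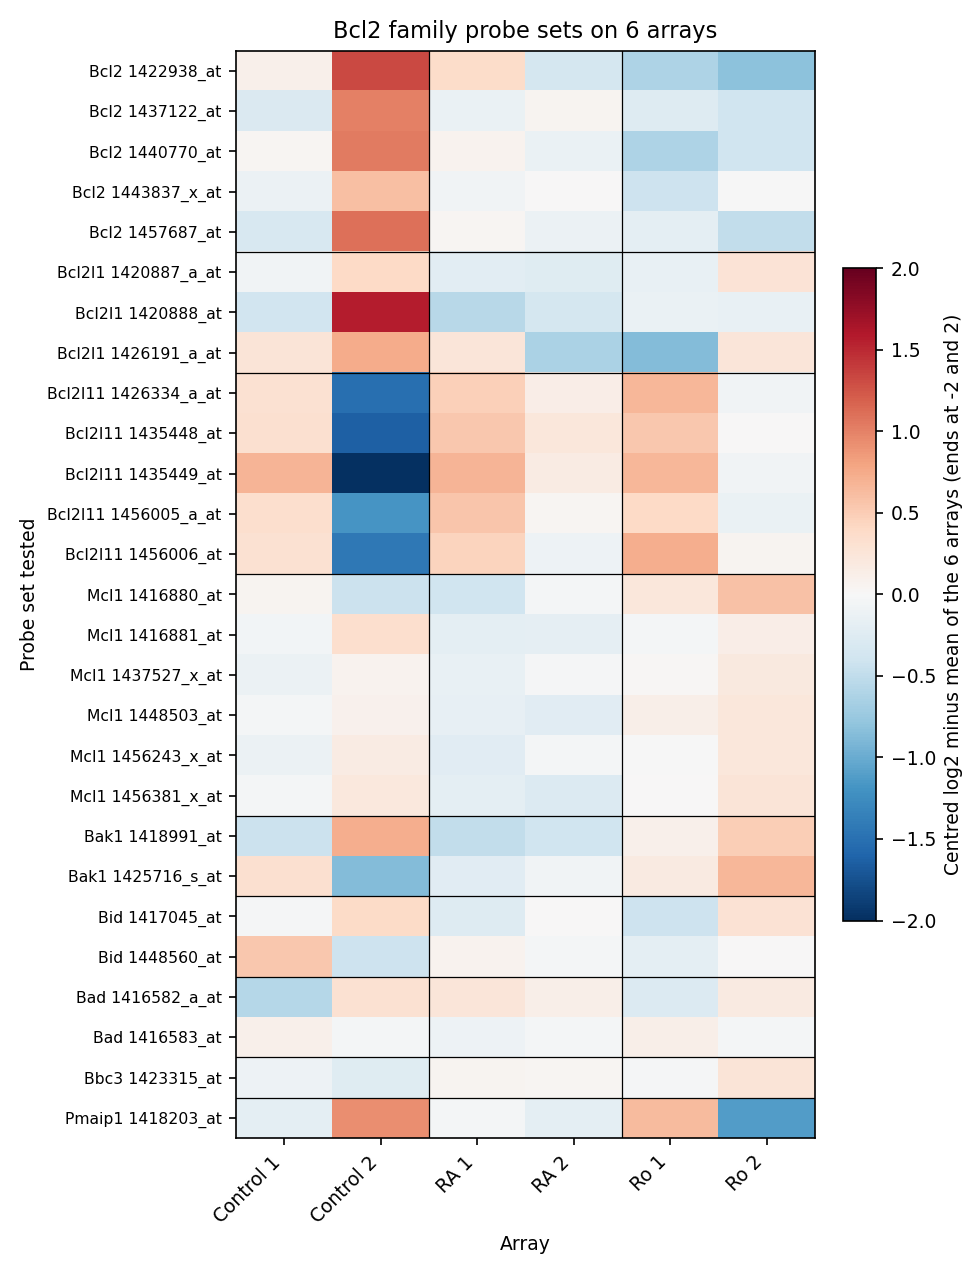
Centred log2 signal of the 27 tested probe sets (vertical axis, grouped by gene) on the 6 arrays (horizontal axis), minus each probe set's mean over the arrays; red is above and blue below that mean. Control 2 stands out as blue for the 5 Bcl2l11 probe sets and red for the 5 Bcl2 and 3 Bcl2l1 probe sets, while Control 1 resembles the RA and Ro arrays.

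Within the family, the 2 Control arrays often lay far apart. On centred values Control 2 lay at least 2-fold below the lowest of the other 5 arrays in 5 of the 27 probe sets, all of Bcl2l11, against 6.13% of all tested probe sets. It lay at least 2-fold above the highest of the other 5 in 2 of the 27, Bcl2 1457687_at and Bcl2l1 1420888_at, against 7.44% of all. Control 2 was the highest of the 6 arrays in 5 of 5 Bcl2 and 3 of 3 Bcl2l1 probe sets, and in 13 of all 27, against 38.7% of tested probe sets. The order for Bcl2 and Bcl2l1 depends on scaling, since as deposited Control 2 read 0.912 to 1.59 times the highest other array for Bcl2 and 0.635 to 1.96 times for Bcl2l1. Control 1, by contrast, lay within the range of the 4 RA and Ro arrays in 23 of the 27 probe sets (85.2%, against 63.8% of all tested), and Control 2 in 5 of the 27 (18.5%, against 30.4%).

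Each Control array was then used alone, in a fit in which the lone array is assumed to vary like the other groups; the RA and Ro comparisons share that array. Against Control 2, limma called 7 of the 27 probe sets for RA. Of these, 4 were higher, all of Bcl2l11, against 4.89% of all tested, and 3 were lower, 2 of Bcl2 and 1 of Bcl2l1, against 6.37%. For Ro it called 10 of the 27. Of these, 5 were higher, all of Bcl2l11, against 6.56% of all tested, and 5 were lower, 4 of Bcl2 and 1 of Bcl2l1, against 7.67%. The Bcl2l11 log2 differences were 1.47 to 2.53 for RA (adjusted p 0.0122 to 0.0507 over 5 probe sets, limma) and 1.30 to 2.40 for Ro (adjusted p 0.0108 to 0.0395, limma). The Bcl2l1 probe set 1420888_at differed by -2.02 for RA (SE 0.28, limma adjusted p = 0.0108) and by -1.71 for Ro (SE 0.28, limma adjusted p = 0.0126). Bcl2 1457687_at differed by -1.14 for RA (SE 0.24, limma adjusted p = 0.0306) and by -1.45 for Ro (SE 0.24, limma adjusted p = 0.0130).

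Against Control 1, 0 of the 27 were called for either group, where 0% of 28633 probe sets passed the test; before adjustment, also 0 of the 27 were under 0.05. The log2 differences then ran from -0.53 to 0.74 for RA and from -0.83 to 0.71 for Ro. Those of Bcl2l11 1456005_a_at were -0.05 (SE 0.31) and -0.22 (SE 0.31). The calls against Control 2 are thus a statement about that 1 array, whose culture, marker sums and Xist signal are given above. With other scalings of the arrays, chosen after seeing the data, all 5 Bcl2l11 probe sets were called higher for Ro in both, and for RA 5 were called as deposited and 4 after quantile normalization. In all, 6 of the 27 were called for RA as deposited (15.1% of all tested) and 5 after quantile normalization (9.97%), and 11 for Ro under either scaling (24.9% and 12.2% of all tested). The Bcl2 calls for RA fell from 2 to 0 under both scalings. As deposited, the Bcl2 calls for Ro fell from 4 to 2, the Bcl2l1 call for Ro was lost (lowest limma adjusted p 0.0593), and 3 Mcl1 probe sets and 1 of Bak1 were called higher for Ro, where 21.4% of all tested were called higher. After quantile normalization, 4 Bcl2 probe sets and 1 each of Bcl2l1 and Bak1 were called for Ro.

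**Figure D4:**
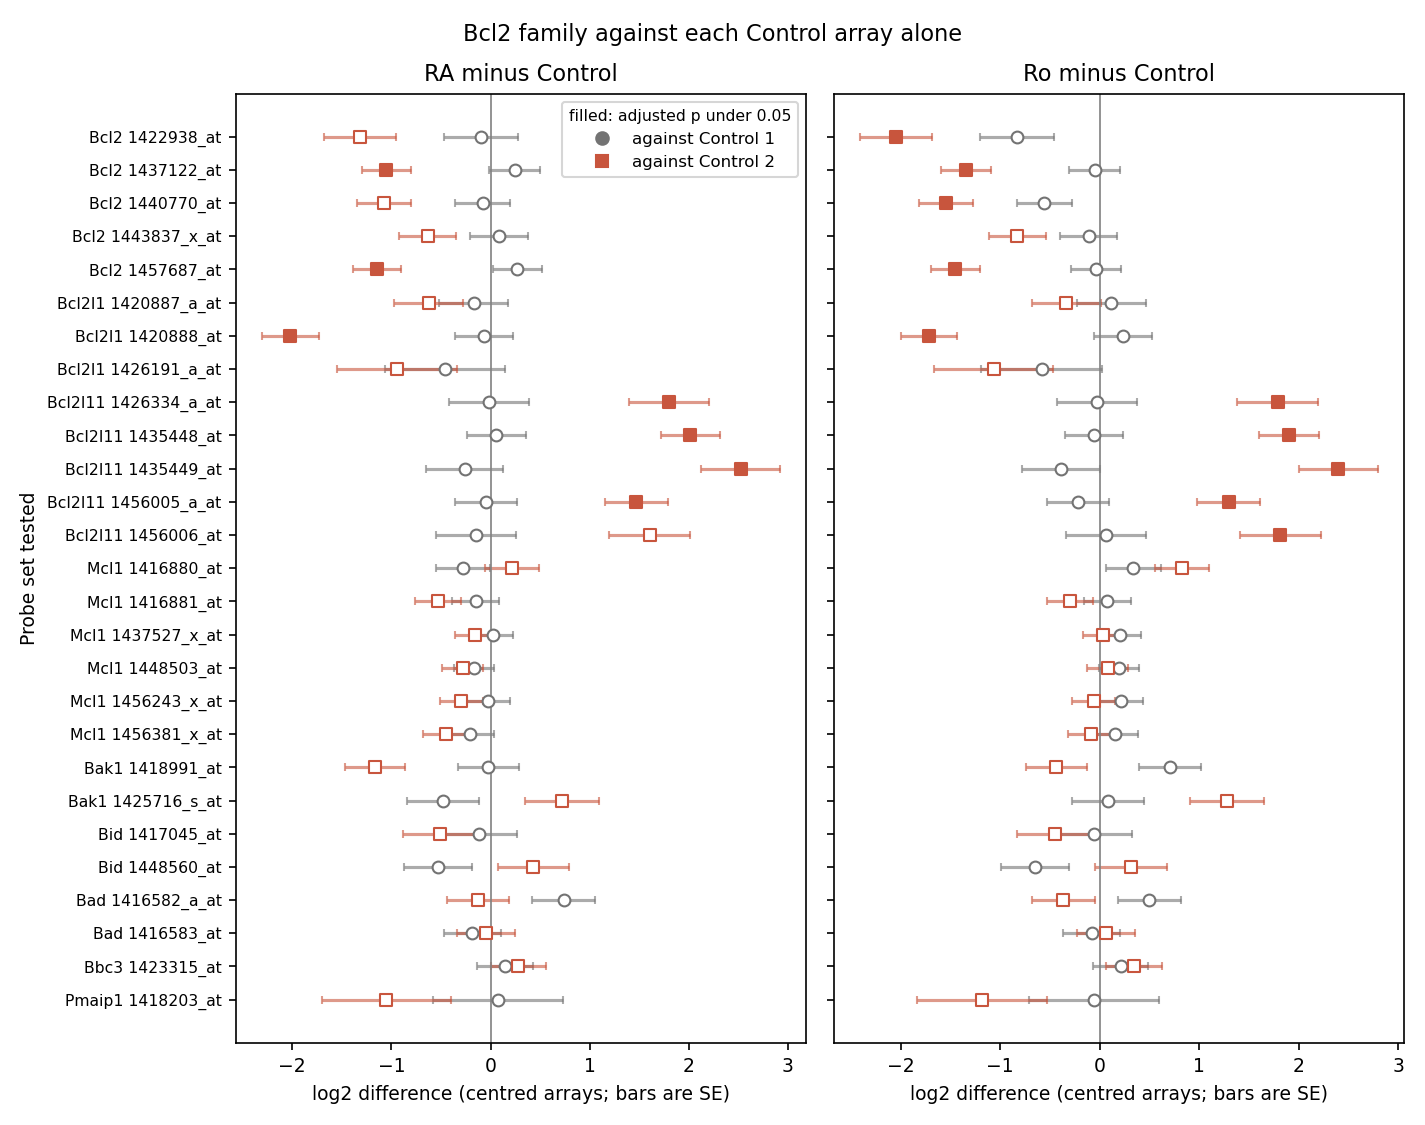
Log2 difference (horizontal axis; centred arrays; bars are SE) of each tested probe set for RA (left) and Ro (right) against Control 1 alone (grey circles) and Control 2 alone (red squares); filled symbols have a limma adjusted p under 0.05. Filled symbols occur only against Control 2, where 7 of 27 were called for RA and 10 of 27 for Ro, against 0 and 0 for Control 1.

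Because a difference between 2 genes on the same array does not depend on how that array was scaled, the death gene Bcl2l11 was also set against each prosurvival gene within arrays. Each gene was read by 1 probe set. Each value is the centred log2 of 1 gene minus that of the other, less the mean of that difference over the 6 arrays, so only its change between arrays is read. Bcl2l11 minus Bcl2 was 0.66 on Control 1, -2.28 on Control 2, 0.52 and 0.16 with RA and 0.59 and 0.35 with Ro. Bcl2l11 minus Bcl2l1 was 0.72 on Control 1, -2.75 on Control 2, 1.11 and 0.38 with RA and 0.53 and 0.01 with Ro. Bcl2l11 minus Mcl1 was 0.37 on Control 1, -1.26 on Control 2, 0.72 and 0.26 with RA and 0.28 and -0.36 with Ro. Control 2 was thus the array with the least Bcl2l11 relative to each of the 3 prosurvival genes, by a smaller gap for Mcl1, and RA and Ro overlapped in the pairs with Bcl2 and Bcl2l1. For Mcl1 they overlapped only narrowly, at 0.26 with RA and 0.28 with Ro. Mcl1 minus Bcl2 was 0.28 on Control 1, -1.01 on Control 2, -0.20 and -0.10 with RA and 0.32 and 0.72 with Ro. Bcl2l1 minus Bcl2 was -0.07 on Control 1, 0.47 on Control 2, -0.59 and -0.22 with RA and 0.07 and 0.34 with Ro. In these 2 pairs of prosurvival genes both RA arrays lay below both Ro arrays, by -0.67 and -0.61 between the group means. The 2 pairs share the same Bcl2 probe set (1457687_at), so they are not separate observations. Of single tested probe sets, 18.3% had that order on centred values, and no share over other pairs of genes was computed. With 2 arrays in each group, no exact permutation test could reach p = 0.05, and none was run.

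Other genes of the pathway were taken from 6 lists, each gene by 1 probe set, and in the RA minus Ro comparison 0 genes of any list were called. Beside a median log2 difference of -0.02 over all 12996 genes, the median was -0.06 over the 9 family genes, 0.15 over 9 other Bcl2 family genes, 0.03 over 11 apoptosome and executioner genes and 0.08 over 10 outer membrane partners. It was -0.23 over 7 inhibitors of apoptosis, 6 of them lower with RA, and 0.11 over 10 death receptor genes. It was -0.33 over 23 upstream regulators, 17 of them lower with RA. The regulators that lay furthest apart were Il2rb, a receptor chain for IL-2 and IL-15, at -0.86 (SE 0.51), and Ddit3, a stress factor, at -0.86 (SE 0.75). Bnip3, a mitophagy gene of the wider family, had a difference of 1.34 (SE 1.04), from signals of 674 and 619 with RA and 307 and 283 with Ro. That SE, like those of the regulators, comes from the fit of all 6 arrays, and Bnip3 read 407 on Control 1 and 3258 on Control 2.

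Against the 2 Control arrays together, and against Control 1 alone, no gene of these lists was called, as no probe set was. Against Control 2 alone, these lists held some calls. Of the 12743 genes tested by 1 probe set each in that fit, 5.1% were called higher and 7.6% lower with RA, and 6.92% higher and 8.76% lower with Ro, and with 7 to 23 genes a list the counts are to be read against those shares. Of the 9 other family genes, of which Bok was too dim for that fit, 2 were lower with both RA and Ro: Bnip3, at 3258 on Control 2 and 283 to 674 on the RA or Ro arrays, and the prosurvival gene Bcl2l2, at 280 against 92.9 to 105. Of the 11 apoptosome and executioner genes, 1 was higher and 2 were lower with RA, and 2 were higher and 5 lower with Ro. The nuclease gene Endog was lower with both, at 379 on Control 2 and 72.1 to 112 elsewhere. Of the death receptor genes, 1 of 10 was called, Fasl, the ligand of Fas, which was higher with both at 28.5 on Control 2 and 176 to 287 on the RA and Ro arrays. Of the inhibitors of apoptosis, 1 of 7 was higher with RA and 0 with Ro: Birc5, a gene also used by dividing cells, read 240 on Control 2 and 1071 to 3753 on the RA and Ro arrays. Its values lie beside the proliferation marker sums given above, whose part was not tested.

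Of the 23 upstream regulators, 1 was higher and 4 were lower with RA, and 0 were higher and 3 lower with Ro, against Control 2 alone; the counts of higher genes are at or below the shares over all genes. The one that was higher was the forkhead gene Foxo3, which read 1377 on Control 1, 409 on Control 2, 1122 and 1407 with RA and 1073 and 1601 with Ro. Its call for RA had a limma adjusted p of 0.0446, and for Ro it was 0.0606. Foxo1, the other FoxO gene of the list, read 1028 on Control 1, 711 on Control 2, 823 and 1224 with RA and 1128 and 1952.5 with Ro. Any part of either gene in the Bcl2l11 values was not tested. Jun read 78.4 on Control 1, 923 on Control 2 and 88.1 to 114 on the RA and Ro arrays. Il2ra, the alpha chain of the IL-2 receptor, read 601 on Control 1, 3062 on Control 2 and 496 to 843 on the RA and Ro arrays. Pim1, a kinase gene induced by cytokines, read 2068 on Control 1, 4032 on Control 2 and 1575 to 2193 on the RA and Ro arrays. The fourth that was lower with RA was Stat3 (limma adjusted p = 0.0375), which read 1341 on Control 1, 1952 on Control 2, 877 and 1336 with RA and 1533 and 2296 with Ro. On the signals as deposited, Control 2 lay apart from the other 5 arrays for Foxo3, Jun, Il2ra and Pim1, whereas for Stat3 it lay between the Ro arrays.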

How the data were processed

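RNA of mouse CD4+ T cells was measured on 6 one-colour arrays, and the groups (Control, RA and Ro, 2 arrays each) were read from the sample titles, 1 of which spells Ro as RO. The RNA (2 ug in all per array) went through 1 round of amplification with biotin as the label, per the labels. The deposited values are linear probe set intensity values ("signal"), for which the submitters' processing notes name MAS5; no version or scaling target is named in the sources used here, detection calls were not used, and the number of arrays limits the precision. Genes were named from the platform annotation (34958 probe sets with 1 symbol, 932 with several, 9211 with none); 64 control probe sets were left out.

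The deposited values were turned into log2(signal + 2.999), the pseudocount being the 20th percentile of all values, which understates differences of dim genes. Each array was centred on its median over the tested probe sets, because as deposited the median probe set differed by -0.21 for RA minus Ro, 0.09 for RA minus Control and 0.29 for Ro minus Control. The 29531 tested probe sets (12996 genes) were fitted in R 4.3.3 with limma 3.58.1 (lmFit, eBayes with an intensity trend) on all 6 arrays, which leaves 3 residual degrees of freedom, and without a block. Tests allowed for both directions, with Benjamini-Hochberg adjustment over all tested probe sets and a threshold of 0.05. The fit was also run on simulated arrays that all had the same normal spread. The real arrays did not, since Control 2 stood apart, so that run does not show what the fit could find here. At most 0.00443% of values were identical between arrays, so no 2 arrays hold the same data.

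A gene with several probe sets was represented, where 1 was needed, by the tested probe set of highest mean log2, leaving out _x_at and _s_at probe sets where another was tested. All 10 genes were named by every probe set. From each other list up to 4 called genes were named, or else at most 2 of the largest RA minus Ro difference, with Bnip3 in any case. Stat3, Foxo1 and the single marker genes were added after their values were seen. The genes and lists were chosen with earlier results of these data known. The _s_at, _x_at and _a_at endings mark probe sets that may read more than 1 transcript or gene. The labels do not say that a replicate number marks a shared animal or day, so numbers were not taken as pairs. The alternatives tried were other pseudocounts, no centring, quantile normalization, other filters, no intensity trend, a replicate block, the mean over a gene's probe sets, a fit of only the groups compared and leaving out each array.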

Additional observations from a re-analysis of the deposited data

How the results depend on the processing

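Of the calls and values for the family, those for RA minus Ro kept 0 called probe sets of 27 under every alternative run, and those against Control depended on which Control array was kept. Leaving out each array in turn, the called probe sets ranged from 0 to 7 for RA minus Control and from 0 to 10 for Ro minus Control; without Control 1 and with values as deposited or quantile-normalized they were 6 and 5 for RA (15.1% and 9.97% of all tested) and 11 and 11 for Ro (24.9% and 12.2%). The median over the genes ranged from -0.51 to -0.021 for RA minus Control and from -0.44 to 0.20 for Ro minus Control, and as deposited the latter was 0.39, an uncentred value. Within arrays, leaving out each array in turn moved RA minus Control from -0.32 to 2.62 for Bcl2l11 against Bcl2, 0.019 to 3.49 against Bcl2l1 and 0.11 to 1.75 against Mcl1, and from -0.44 to 0.86 for Mcl1 against Bcl2; for Ro minus Control the ranges were -0.19 to 2.75, -0.46 to 3.01, -0.42 to 1.22 and 0.23 to 1.53. With the mean over a gene's probe sets, Bcl2l1 against Bcl2 was -0.23 for RA minus Control and 0.32 for Ro minus Control, and the RA minus Ro value of Bid was 0.024. Log2 differences that were uncalled in the fit of all 6 arrays changed sign as follows. Some ends of the ranges, those without Control 1, were called, as given above. As deposited, RA minus Ro was -0.051 for Bcl2l11 and -0.087 for Pmaip1, and Ro minus Control was 0.073 for Bid. After quantile normalization, RA minus Ro was 0.015 for Bbc3 and Ro minus Control -0.014 for Bad. Without a filter, Ro minus Control was 0.0080 for Bid, and with a filter at the 60th percentile RA minus Ro was 0.0039 for Bid and Ro minus Control -0.040 for Bad. Leaving out each array in turn, RA minus Ro ranged from -0.10 to 0.44 for Bcl2l11, -0.40 to 0.29 for Bid, -0.20 to 0.070 for Bbc3 and -0.74 to 1.02 for Pmaip1. RA minus Control ranged from -1.14 to 0.27 for Bcl2, -0.049 to 1.47 for Bcl2l11, -0.13 to 0.74 for Bad and -1.05 to 0.075 for Pmaip1. Ro minus Control ranged from -0.22 to 1.30 for Bcl2l11, -1.71 to 0.23 for Bcl2l1, -0.44 to 0.71 for Bak1, -0.37 to 0.50 for Bad, -0.60 to 0.093 for Bid and -1.50 to 0.26 for Pmaip1. Deviations of same-numbered arrays from their group means correlated at 0.0048 for Control and RA, -0.029 for Control and Ro and 0.25 for RA and Ro; with 2 arrays a group and no label on shared material this does not establish pairs. With the replicate number as a block, 0 of the 27 and 0 of all 29531 probe sets were called in each comparison, as without it. Apart from fewer arrays where 1 was left out, the cause of these changes was not tested.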
